A study of Mus musculus with 8 samples.

Results

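The guanylate-binding proteins (GBPs) on the array were taken as all probes that carry the name Gbp1, Gbp2, Gbp3, Gbp4, Gbp5, Gbp6 or Mpa2l in the array design. This gave 7 of the 31791 gene names on the array, with 9 of its 39429 probes, and 8 of the 9 entered the tests of 25580 probes. Several of these names have changed since the array was designed. By their accessions, the gene named Gbp1 on the array is now Gbp2b, the gene named Gbp6 is now Gbp7, and Mpa2l is now Gbp6. The array names are kept below, with the current name where it differs.

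IEC10 cells are an immortalized mouse intestinal epithelial cell line that carries a luciferase reporter under control of the Mx2 promoter. The cells were grown for 21 days on transwell inserts, where they polarize, and were left untreated or stimulated for 9 h with IFN-λ2 at 20 ng/mL or IFN-β at 500 U/mL. RNA was measured on 8 one-color arrays, 2 of untreated control cells (replicates 2 and 3), 3 of IFN-λ2-stimulated cells and 3 of IFN-β-stimulated cells. The 2 cytokines were given in different units of dose, so that cytokine and dose cannot be told apart, and nothing in the labels says that arrays of a group came from separate experiments, so that p-values measure the spread between these arrays alone.

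GBPs are large GTPases that interferons induce in many cell types. They assemble on the membranes of vacuoles that hold intracellular bacteria or parasites and on bacteria in the cytosol, and they act upstream of inflammasome caspases. Type I interferons such as IFN-β and type III interferons such as IFN-λ2 bind different receptors but activate the same signaling pathway, which acts on genes through the interferon-stimulated response element (ISRE). The gamma-activated site (GAS) is another element found at interferon-stimulated genes. In the mouse the GBP genes lie in a cluster on chromosome 3, which here holds Gbp1, Gbp2, Gbp3, Gbp5 and Gbp6, and in a second cluster on chromosome 5, which holds Gbp4 and Mpa2l.

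The sequence upstream of the start site is shown for the chromosome 3 members, since the ISRE is the element through which both cytokines act. The sequences are those of RefSeq on GRCm38.p6, on the plus strand, which is the strand of all 5 genes, and each ends at the base before the annotated start. They span chr3:142620413-142620662 for Gbp2, chr3:142559794-142560043 for Gbp3, chr3:142530086-142530335 for Gbp7, chr3:142496684-142496933 for Gbp5 and chr3:142594597-142594846 for Gbp2b. Capitals mark the ISRE core, searched as GAAA, any 2 bases and GAAA again, or the same on the other strand, TTTC, any 2 bases and TTTC.
Gbp2: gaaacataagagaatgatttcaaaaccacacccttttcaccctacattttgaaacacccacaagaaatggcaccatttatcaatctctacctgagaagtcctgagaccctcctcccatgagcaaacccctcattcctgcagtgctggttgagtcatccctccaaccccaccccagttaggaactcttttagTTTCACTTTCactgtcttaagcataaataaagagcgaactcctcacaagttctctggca
Gbp3: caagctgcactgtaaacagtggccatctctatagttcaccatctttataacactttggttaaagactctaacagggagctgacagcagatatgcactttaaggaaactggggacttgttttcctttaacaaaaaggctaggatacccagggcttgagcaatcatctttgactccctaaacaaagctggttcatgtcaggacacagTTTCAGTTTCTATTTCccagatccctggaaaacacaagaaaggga
Gbp7, named Gbp6 on the array: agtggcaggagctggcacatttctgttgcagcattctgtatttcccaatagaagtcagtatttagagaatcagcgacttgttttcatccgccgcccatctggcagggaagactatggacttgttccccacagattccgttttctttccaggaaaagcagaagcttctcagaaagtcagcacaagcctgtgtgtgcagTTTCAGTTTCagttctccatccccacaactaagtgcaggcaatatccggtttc
Gbp5: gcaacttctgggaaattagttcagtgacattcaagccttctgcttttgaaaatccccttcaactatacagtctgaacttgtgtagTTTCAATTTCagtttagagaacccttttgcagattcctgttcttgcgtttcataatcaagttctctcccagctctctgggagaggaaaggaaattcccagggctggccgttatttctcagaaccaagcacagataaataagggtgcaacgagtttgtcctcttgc
Gbp2b, named Gbp1 on the array: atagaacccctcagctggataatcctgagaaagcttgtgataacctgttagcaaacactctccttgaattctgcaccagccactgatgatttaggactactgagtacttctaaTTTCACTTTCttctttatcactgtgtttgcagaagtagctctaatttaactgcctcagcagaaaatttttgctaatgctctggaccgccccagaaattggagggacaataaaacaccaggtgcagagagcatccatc

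Each of these 5 stretches of 250 bases held an ISRE core, in every case as TTTC on the strand shown. Of all 32851 promoters of the same length, 2.98% held it. In Gbp2 the match lay at -59 to -50 from the start site, in Gbp7 at -53 to -44, and in Gbp3 a pair of overlapping matches spanned -45 to -36 and -39 to -30. In Gbp5 it lay farther upstream, at -165 to -156, and in Gbp2b at -137 to -128. A GAS, searched as TTC, any 3 bases and GAA, which reads the same on both strands, was found in Gbp5 at -245 and -52 and in Gbp7 at -106 and -87, against 7.02% of all promoters with at least 1 match. No match to the GAS letters was found in the stretches of Gbp2, Gbp3 and Gbp2b, and no GAS overlapped an ISRE core. A second annotated start of Gbp3 had neither in its 250 bases. The promoters were found for 5 of 11 GBP genes sought, which include GBP genes outside the 7 names.

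**Figure D1:**
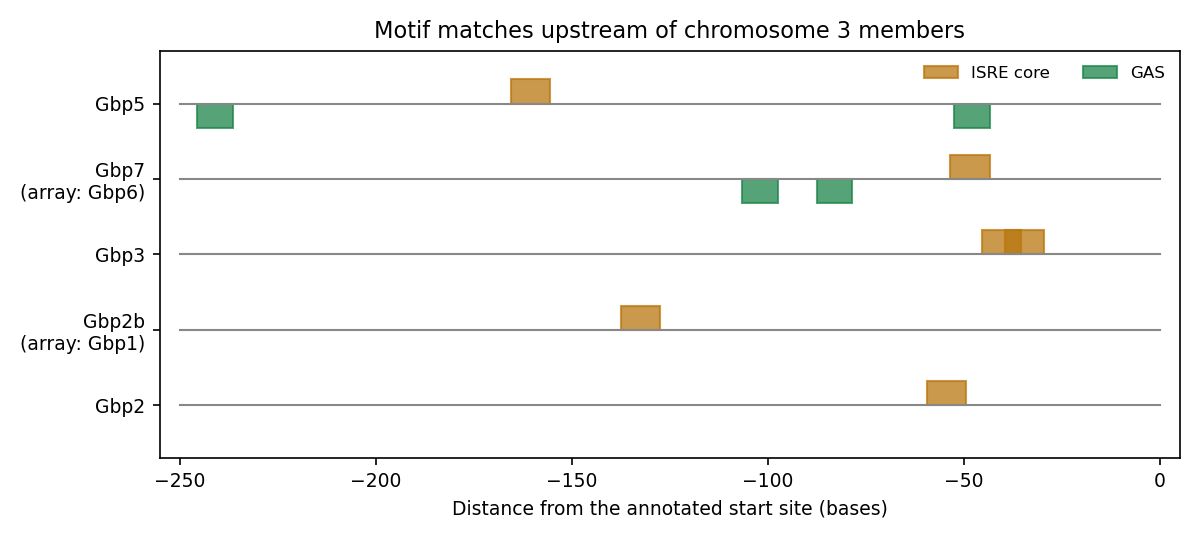
Positions of ISRE core (above each line) and GAS (below) matches in the 250 bases upstream of the annotated start of 5 chromosome 3 genes, in bases from the start. The ISRE cores of Gbp2, Gbp7 and Gbp3 lie between -59 and -30, and those of Gbp5 and Gbp2b at -165 and -137.

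Signals are given in normalized units, the processed signal scaled so that the 75th percentile of every array is 1500, with values under 15 set to 15. A probe was called if its Benjamini-Hochberg adjusted p in limma was under 0.05 and its change at least 2-fold. With IFN-λ2, 6 of the 8 tested GBP probes were called higher than in control cells, where 2.74% of all tested probes were called higher. With IFN-β it was the same 6 probes, where 0.907% of all tested probes were called. The methods' t-test called 2 of these 6 with IFN-β, Gbp3 and the second Mpa2l probe, and not Gbp2 (adjusted p = 0.0515), Gbp4 (adjusted p = 0.0915), Gbp6 (adjusted p = 0.239) or the first Mpa2l probe (adjusted p = 0.0521). The 6 probes called by limma stand for 5 genes: Gbp2, Gbp3, Gbp4, Gbp6 (now Gbp7) and Mpa2l (now Gbp6). The median log2 change of the 8 probes was 3.30 with IFN-λ2 and 2.70 with IFN-β, while the median over all tested probes was 0.015 and 0.014. Both comparisons share the 2 control arrays.

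**Figure D2:**
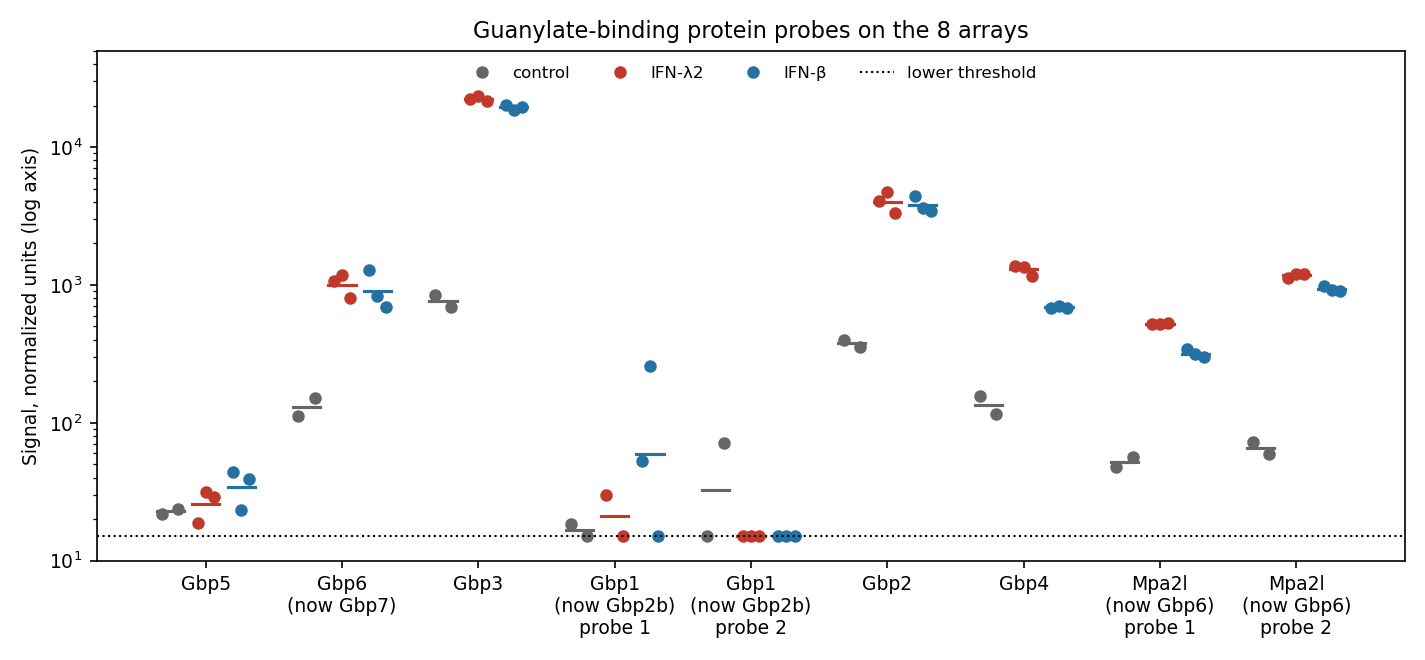
Signal of the 9 GBP probes on each array in normalized units on a log axis, ordered by chromosome and mm9 position. Points are arrays, short lines the means of the log2 values and the dotted line the threshold of 15 units. For Gbp6, Gbp3, Gbp2, Gbp4 and both Mpa2l probes all stimulated arrays lie above both control arrays.

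Gbp3 had the largest change of the chromosome 3 members. Its probe (chr3:142236032-142236091 on mm9, plus strand) gave 848.1 and 689.6 units on the control arrays. The IFN-λ2 arrays gave 22180, 23422 and 21641 units and the IFN-β arrays 20325, 18695 and 19492 units. Every stimulated array thus lay far above both controls, and the 3 IFN-λ2 arrays lay above the 3 IFN-β arrays. The log2 change over control was 4.87 (SE 0.10, adjusted p = 1.33e-06), a 29.3-fold increase, with IFN-λ2, and 4.67 (SE 0.10, adjusted p = 3.09e-06), a 25.5-fold increase, with IFN-β. By size of change this probe ranked 9 with IFN-λ2 and 3 with IFN-β among 25580 probes. Between the cytokines the fold was 1.15 with a 95% confidence interval of 0.989 to 1.34 (adjusted p = 0.224).

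Gbp2, which is among the GBPs that coat pathogen-containing vacuoles, was expressed at 397.7 and 356.1 units on the control arrays (probe at chr3:142300719-142300778 on mm9, plus strand). It reached 4076, 4728 and 3346 units with IFN-λ2 and 4418, 3640 and 3457 units with IFN-β. The stimulated arrays were all above the controls, and the arrays of the 2 cytokines overlapped. The log2 change was 3.41 (SE 0.17, adjusted p = 2.96e-05) with IFN-λ2 and 3.34 (SE 0.17, adjusted p = 4.70e-05) with IFN-β, or 10.66-fold and 10.1-fold. The fold between IFN-λ2 and IFN-β was 1.05, with a 95% confidence interval of 0.822 to 1.34 (adjusted p = 0.819).

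Gbp6 on the array, now Gbp7, was the third chromosome 3 member to rise (probe at chr3:142209379-142209438 on mm9, plus strand). The control arrays gave 111.9 and 151.6 units, the IFN-λ2 arrays 1068, 1189 and 797.8 units and the IFN-β arrays 1279, 827.2 and 690.0 units. Stimulated and control arrays were again separate, but the arrays within each stimulated group were more spread than for Gbp3, and the 2 stimulated groups overlapped. The log2 change was 2.95 (SE 0.29, adjusted p = 0.00089) with IFN-λ2 and 2.79 (SE 0.29, adjusted p = 0.0033) with IFN-β, or 7.71-fold and 6.91-fold. The IFN-β call of this probe was lost when only the 2 groups compared were fitted (adjusted p = 0.0525) and in the methods' t-test (adjusted p = 0.239). Between the cytokines the fold was 1.12, with a 95% confidence interval of 0.727 to 1.71 (adjusted p = 0.761).

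On chromosome 5, Gbp4 rose with both cytokines and more with IFN-λ2 (probe at chr5:105544852-105544911 on mm9, minus strand). The control arrays gave 155.9 and 115.0 units. The IFN-λ2 arrays gave 1383, 1344 and 1165 units and the IFN-β arrays 679.9, 709.3 and 680.1 units. The 3 groups were in the order control, IFN-β, IFN-λ2 with no overlap. The log2 change over control was 3.27 (SE 0.14, adjusted p = 1.52e-05) with IFN-λ2, or 9.67-fold, and 2.37 (SE 0.14, adjusted p = 0.000111) with IFN-β, or 5.15-fold. The difference between the cytokines was 1.88-fold, with a 95% confidence interval of 1.53 to 2.30 (adjusted p = 0.00528). Arrays with the same replicate number shared a slide, and within the 3 slides the log2 difference was 1.03, 0.92 and 0.78.

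Mpa2l (now Gbp6) was measured with 2 probes, both on the minus strand. The first, at chr5:105700056-105700115 on mm9, gave 47.4 and 56.8 units on the control arrays. It gave 517.5, 520.5 and 530.3 units with IFN-λ2 and 342.4, 313.2 and 299.8 units with IFN-β. As for Gbp4, the groups did not overlap and IFN-λ2 was highest. The log2 change was 3.33 (SE 0.10, adjusted p = 2.91e-06) with IFN-λ2 and 2.62 (SE 0.10, adjusted p = 1.30e-05) with IFN-β, or 10.1-fold and 6.13-fold. With normexp background correction these log2 changes were 2.48 and 1.84. The fold between the cytokines was 1.64, with a 95% confidence interval of 1.421 to 1.90 (adjusted p = 0.00357), and the log2 difference within the slides was 0.60, 0.73 and 0.82.

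The second Mpa2l probe, at chr5:105702128-105702187 on mm9, is assigned by the array design to the transcripts of both Mpa2l and Gbp10, so that its signal may belong to either gene. It gave 72.6 and 59.8 units on the control arrays, 1132, 1193 and 1195 units with IFN-λ2 and 990.3, 913.0 and 908.6 units with IFN-β. The order of the groups was the same as for the first probe. The log2 change was larger, at 4.15 (SE 0.10, adjusted p = 1.44e-06) with IFN-λ2 and 3.83 (SE 0.10, adjusted p = 4.29e-06) with IFN-β, or 17.8-fold and 14.2-fold, and with normexp 3.36 and 3.08 on the log2 scale. The fold between the cytokines was smaller, at 1.25 with a 95% confidence interval of 1.08 to 1.45, and missed the threshold (adjusted p = 0.0609). Over the alternatives its adjusted p lay between 0.0318 and 0.175.

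Gbp5, known for its part in inflammasome activation, gave low signals (probe at chr3:142184779-142184838 on mm9, plus strand). The control arrays gave 22.0 and 23.5 units, the IFN-λ2 arrays 18.8, 31.3 and 29.0 units and the IFN-β arrays 44.1, 23.5 and 39.2 units. The groups overlapped, and the probe was well above background on 1 of 2 control, 2 of 3 IFN-λ2 and 2 of 3 IFN-β arrays. The log2 change was 0.18 (95% confidence interval of the fold 0.683 to 1.88, adjusted p = 0.719) with IFN-λ2 and 0.60 (0.910 to 2.51, adjusted p = 0.517) with IFN-β. A further probe at chr3:142181426-142181485 on mm9 is named by an Ensembl transcript and described as Gbp5; it is not one of the 9 and was looked at after its values were seen. It gave 880.7 and 823.0 units on the control arrays, 498.3, 479.4 and 430.3 units with IFN-λ2 and 1195, 475.2 and 832.7 units with IFN-β. Its log2 change was -0.86 (adjusted p = 0.123) with IFN-λ2 and -0.13 (adjusted p = 0.921) with IFN-β.

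Gbp1 on the array, now Gbp2b, was at or near the threshold on most arrays. Its first probe (chr3:142281466-142281525 on mm9, plus strand) gave 18.4 and 15 units on the control arrays and 30.0 and 15 units on IFN-λ2 arrays 1 and 3, while its feature on IFN-λ2 array 2 was marked uneven and left out of the fit. The IFN-β arrays gave 52.5, 260.3 and 15 units. The spread within the IFN-β group was thus wider than any difference between groups, and neither control array was well above background. The fitted log2 change was 0.35 with IFN-λ2 (adjusted p = 0.869) and 1.83 with IFN-β (adjusted p = 0.599), and neither is a measured fold, since the controls are at background. Over the alternatives it ranged from -0.21 to 1.15 with IFN-λ2, the highest value with the uneven feature kept, and from 0.76 without IFN-β replicate 2 to 2.81 without IFN-β replicate 3 with IFN-β. The second probe (chr3:142281897-142281956 on mm9, plus strand) was at 15 units on 7 arrays and at 71.5 units on control array 3, and was not tested.

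**Figure D3:**
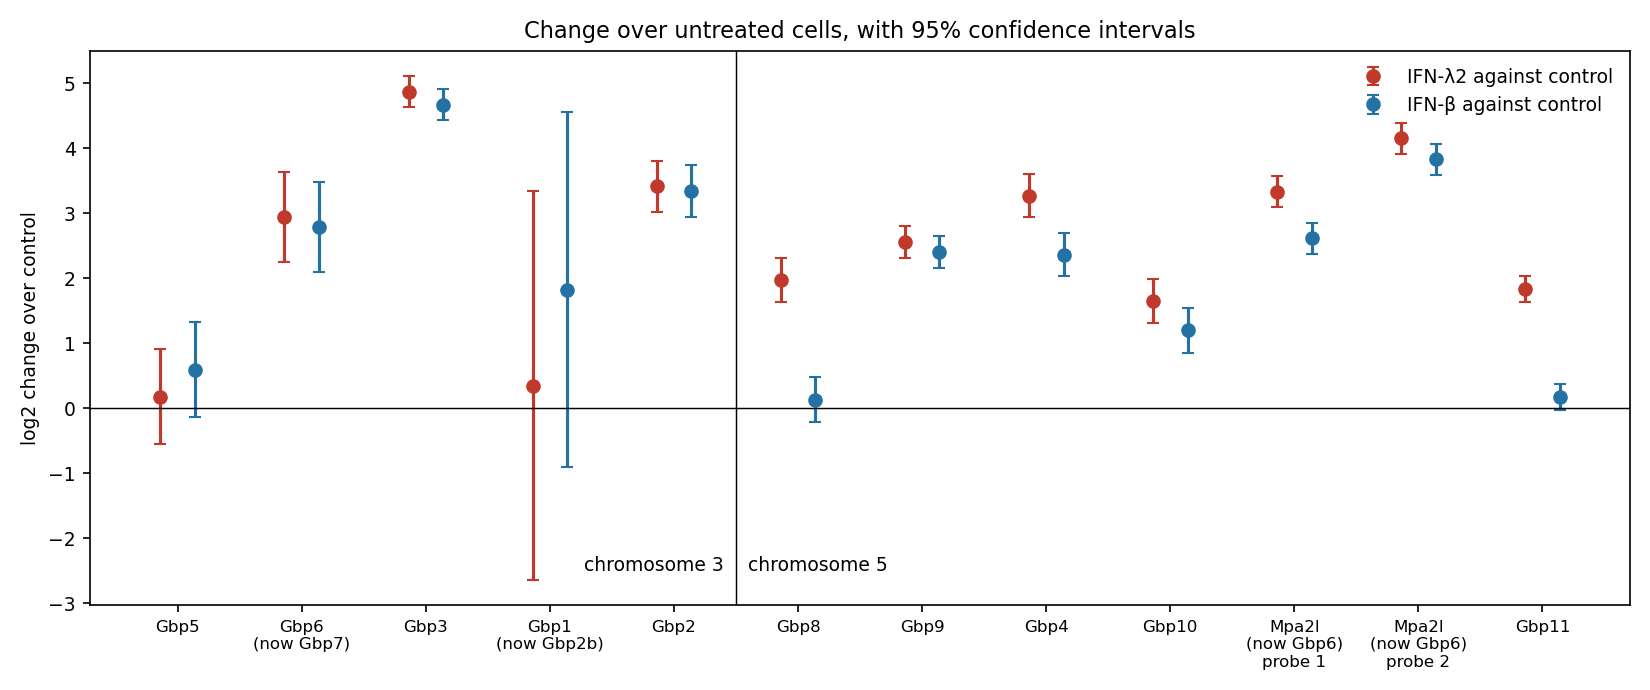
Log2 change over control with 95% confidence intervals for the 8 tested GBP probes and the 4 further GBP genes of chromosome 5 (Gbp8 to Gbp11), in mm9 order within each chromosome. Gbp3 has the largest change, at 4.87 for IFN-λ2 and 4.67 for IFN-β, while Gbp8 and Gbp11 stay near 0 with IFN-β alone.

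In the order of the IFN-λ2 changes over control, Gbp3 stood first and its 95% confidence interval of 24.8-fold to 34.6-fold did not overlap that of the second Mpa2l probe, 15.1-fold to 21.0-fold. The intervals of Gbp2 (8.10 to 14.02), the first Mpa2l probe (8.56 to 11.9), Gbp4 (7.69 to 12.1) and Gbp6 (4.78 to 12.4) overlapped one another. The order depends on the background correction. With normexp Gbp3 was still first, at a log2 change of 4.79, but the first Mpa2l probe (2.48) fell below Gbp4 (2.84) and Gbp6 (2.52). With IFN-β the intervals of Gbp3 (21.6 to 30.1) and the second Mpa2l probe (12.1 to 16.7) were again apart. The interval of Gbp4 (4.10 to 6.47) lay below that of Gbp2 (7.71 to 13.3).

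The direct comparison of IFN-λ2 with IFN-β asks whether GBPs respond more to one cytokine. None of the 8 probes was called higher by limma at an adjusted p under 0.05 and a 2-fold change, against 1.47% of all tested probes, and the methods' t-test called 0 as well; 3 were higher at an unadjusted p under 0.05, against 13.1% of all tested probes. By the adjusted p alone, 2 of 8 were higher with IFN-λ2, Gbp4 and the first Mpa2l probe, against 6.19% of all tested probes. In 4 of 8 all IFN-λ2 arrays lay above all IFN-β arrays, against 17.9% of all tested probes, and these were Gbp3, Gbp4 and both Mpa2l probes.

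The other GBP genes named on the array, Gbp8, Gbp9, Gbp10 and Gbp11, the last a transcribed pseudogene in RefSeq, all lie on chromosome 5. With IFN-λ2 all 4 were called higher, against 2.74% of all tested probes, and with IFN-β 2 of 4, against 0.907%. Gbp8 gave 28.1 and 22.6 units on the control arrays, 111.6, 84.9 and 103.2 units with IFN-λ2 and 29.3, 27.6 and 26.1 units with IFN-β, where 2 of 3 arrays were well above background. Its arrays thus rose with IFN-λ2 and overlapped the controls with IFN-β. The log2 change was 1.98 (adjusted p = 0.00022) with IFN-λ2 and 0.14 (adjusted p = 0.771) with IFN-β, and the fitted direct difference was 1.85 (adjusted p = 0.000436), which rests on an IFN-β group with 1 array not well above background.

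Gbp11 gave 88.7 and 101.6 units on the control arrays, 345.4, 350.1 and 325.5 units with IFN-λ2 and 108.6, 104.2 and 110.1 units with IFN-β. Its log2 change was 1.84 (adjusted p = 2.04e-05) with IFN-λ2 and 0.18 (adjusted p = 0.463) with IFN-β, with a direct difference of 1.66 (adjusted p = 0.000116). Gbp9 and Gbp10 rose with both cytokines. Gbp9 averaged 358.9 ± 15.4 units in control cells (SD, n = 2), 2118 ± 200.5 with IFN-λ2 (SD, n = 3) and 1914 ± 141.9 with IFN-β (SD, n = 3), and Gbp10 averaged 50.9 ± 3.48, 159.8 ± 3.51 and 118.4 ± 20.3 units. The direct log2 difference was 0.14 for Gbp9 (adjusted p = 0.385) and 0.45 for Gbp10 (adjusted p = 0.0731). The Gbp10 probe is also assigned to the Mpa2l transcript. No 2 probes of the family shared a run of more than 9 of their 60 bases. The 2 Mpa2l probes themselves shared a run of 5. Probes at different positions of a transcript share little, so this does not tell which transcript a probe measures.

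Read by chromosome, the 3 chromosome 3 probes that were well above background on all arrays (Gbp2, Gbp3 and Gbp6) had IFN-λ2 to IFN-β folds of 1.05, 1.15 and 1.12. The 6 such probes of chromosome 5 had folds of 1.11 for Gbp9, 1.25 and 1.64 for Mpa2l, 1.37 for Gbp10, 1.88 for Gbp4 and 3.16 for Gbp11. The mean log2 change over control of the 3 chromosome 3 probes was 3.78, 3.93 and 3.53 on the IFN-λ2 arrays and 3.86, 3.52 and 3.43 on the IFN-β arrays, which overlap. That of the 6 chromosome 5 probes was 2.84, 2.81 and 2.76 on the IFN-λ2 arrays and 2.18, 2.03 and 2.10 on the IFN-β arrays, which do not. Of all tested probes, 17.9% had all IFN-λ2 arrays above all IFN-β arrays. The chromosome 5 mean includes Gbp11, with the largest fold, and both Mpa2l probes. The fold of Gbp9 lay within the range of the chromosome 3 probes, so the difference does not hold for every chromosome 5 member. This difference in means was seen in the data first and was not tested.

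**Figure D4:**
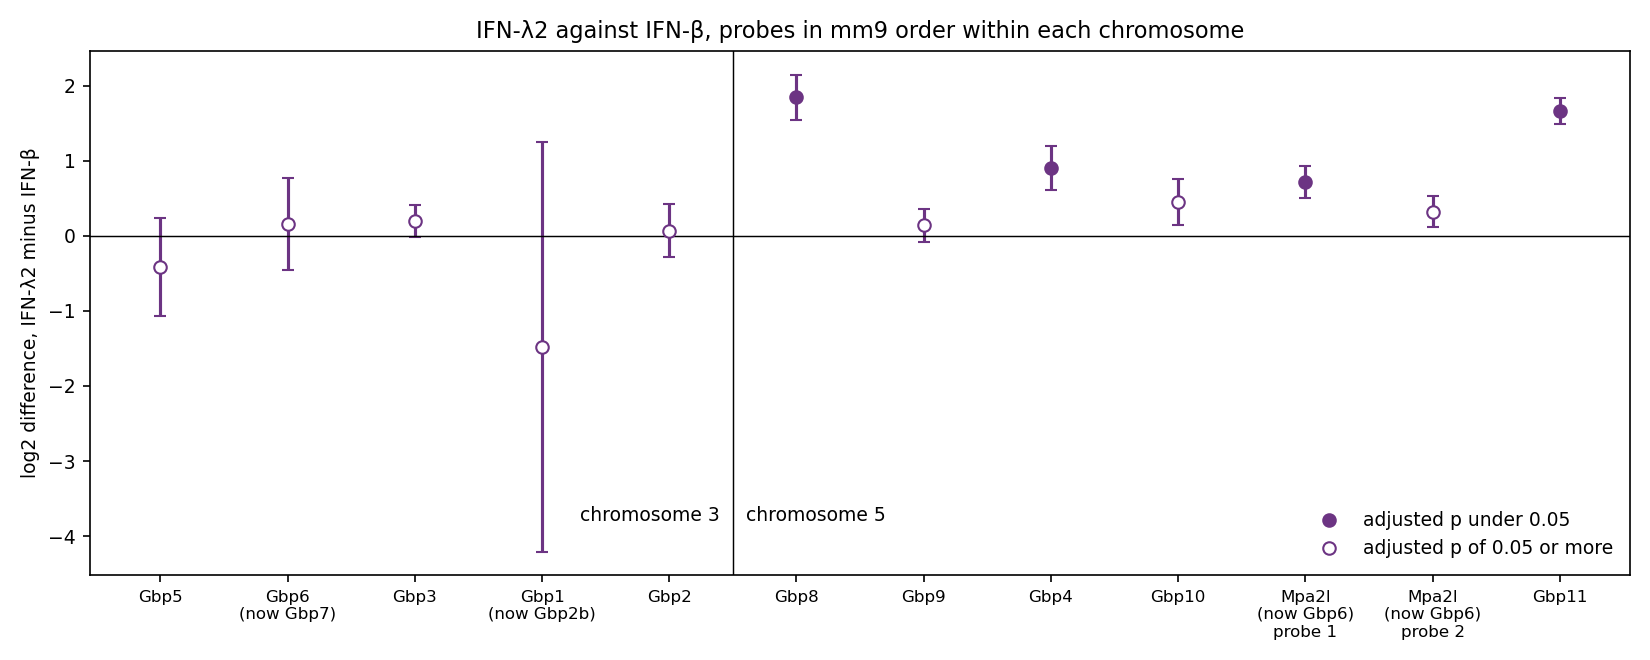
Log2 difference of IFN-λ2 minus IFN-β with 95% confidence intervals, in mm9 order within each chromosome; filled points have an adjusted p under 0.05. On chromosome 5 the differences of Gbp8, Gbp4, the first Mpa2l probe and Gbp11 are filled and above 0, and on chromosome 3 none is.

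The genes whose pattern over the 8 arrays came closest to 5 GBP probes, the brightest of each gene that rose, were taken by the Euclidean distance of log2 values set against the control mean among 20254 probes. Nearest to Gbp2 were Oas1f (0.368), Xaf1 (0.425) and Rtp4 (0.489), and to Gbp3 Oasl2 (0.328), Dhx58 (0.715) and Mx2 (1.10). Nearest to Gbp4 were Oasl1 (0.397) and Spink2 (0.517), and to Gbp6 Lgals9 (0.702), Irgm1 (0.711) and Ddx58 (0.789). The second Mpa2l probe lay next to Trim30d (0.291), Isg15 (0.353) and Ifit3 (0.370).

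The genes around the GBPs were read from lists of their pathway. Of 11 immunity-related and Mx GTPases, the relatives that share vacuole targeting or antiviral action, all 10 tested were called higher with each cytokine, against 2.74% and 0.907% of all tested probes, and their median log2 change was 3.73 for IFN-λ2 and 3.04 for IFN-β. One of them, Ifi47, passed both limits between the cytokines, 1.06 higher with IFN-λ2 on the log2 scale (adjusted p = 0.00318), and by the adjusted p alone 8 of 10 were higher with IFN-λ2, against 6.19% of all tested probes. Of 17 receptor, JAK, STAT, IRF and SOCS genes, 4 were called higher with IFN-λ2, against 2.74% of all tested probes, and 3 with IFN-β, against 0.907%. Socs3, a feedback inhibitor of cytokine signaling, had an adjusted p of 0.00179 with IFN-λ2 at a log2 change of -0.70, which is under 2-fold. Socs1 went the other way and was called higher with both cytokines. Its log2 change was 1.78 (adjusted p = 0.000103) with IFN-λ2 and 1.51 (adjusted p = 0.000446) with IFN-β. Irf9, a transcription factor that binds the ISRE, changed by 2.01 on the log2 scale (adjusted p = 5.43e-06) with IFN-λ2 and by 1.93 (adjusted p = 1.05e-05) with IFN-β. Irf1, which also drives GBP genes, changed by 1.15 (adjusted p = 0.000174) with IFN-λ2 and 0.86 (adjusted p = 0.00164) with IFN-β.

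By limma, 0 of the 6 tested genes of 9 inflammasome genes were called higher at 2-fold with either cytokine, against 2.74% and 0.907% of all tested probes. An adjusted p under 0.05 was found for 1 of them with IFN-λ2 and for 1 with IFN-β, against 19.2% and 1.72% of all tested probes. Casp4, the caspase downstream of GBPs on cytosolic bacteria, averaged 3443 ± 242.3 units in control cells (SD, n = 2), 6034 ± 678.5 with IFN-λ2 and 5843 ± 177.4 with IFN-β (SD, n = 3), a log2 change of 0.81 (adjusted p = 0.003) and 0.76 (adjusted p = 0.0156). Aim2, Nlrc4 and Il1b were at 15 units on all arrays. At 2-fold, limma called 0 of 11 autophagy conjugation genes higher with either cytokine, against 2.74% and 0.907% of all tested probes. The adjusted p was under 0.05 for 2 with IFN-λ2, Atg5 (log2 change 0.28) and Atg12 (0.36), against 19.2% of all tested probes. With IFN-β it was under 0.05 for 0, against 1.72%. Of 5 prenylation enzymes, which attach the lipid anchor of some GBPs, limma called 0 higher, and 0 had an adjusted p under 0.05, against the same shares. Of the 4 tested interferon genes, limma called 1 higher with IFN-λ2 and 0 with IFN-β, against 2.74% and 0.907% of all tested probes. The 1 called, Ifnb1, averaged 33.1 units in control cells, 138.5 with IFN-λ2 and 57.2 with IFN-β. Its log2 change was 2.04 (adjusted p = 0.00277) and 0.75 (adjusted p = 0.324). Ifng was at 15 units on all arrays.

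Of 10 epithelial markers 9 were well above background on all arrays and Cdx2 was at 15 units throughout. Their summed signal ranged from 326244 to 350068 units on control, 360905 to 380511 on IFN-λ2 and 319041 to 366310 on IFN-β arrays, most of it Krt18. With IFN-λ2, 0 of 9 tested were called higher at 2-fold, against 2.74% of all tested probes, and the adjusted p was under 0.05 for 3, Cldn3 (log2 change -0.62), Krt19 (0.42) and Cdh1 (0.45), against 19.2% of all tested probes. Of 7 leukocyte markers 3 were well above background on all arrays, and their sum, most of it Itgam, was 5662 to 7910, 2217 to 3696 and 2946 to 10068 units. Ptprc, which defines leukocytes, was at 15 units on all control and IFN-λ2 arrays and at 39.5, 15 and 33.5 units on the IFN-β arrays. With IFN-β its log2 change was 0.85 (adjusted p = 0.427). That of the other tested leukocyte markers was 1.21 for Cd79a, 0.04 for Cd68, 0.02 for Emr1, 0.01 for Cd3e and -0.28 for Itgam. Of these 6 markers, 0 were called higher with IFN-β, against 0.907% of all tested probes. The summed signal of 6 endothelial and fibroblast markers was between 106.1 and 124.3 units on all arrays. The part of these cells in the GBP values was not tested.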

How the data were processed

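RNA of IEC10 cells was measured on 8 one-color arrays, grouped by the stimulus in the labels. Replicate 1 of the control group was not analysed here. The authors deposited the scanner intensity of each feature, from Agilent Feature Extraction 10.7.3.1 per the file headers, with the pixel standard deviation as another measure, and a value table of linear, scaled intensities. This table equals the background-subtracted processed signal times 1500 over each array's own 75th percentile, with a lower threshold of 15. The median ratio of the values used here to it was 1.

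Control features were left out, as were features marked as outliers, those beyond 1.42 interquartile ranges of their copies and those with a pixel coefficient of variation above 0.5, 313 to 424 per array. On each array 21036 to 24282 probes were well above background and 0 were saturated. The number of arrays limits the precision. Probes above 15 on at least 2 arrays were tested. limma 3.58.1 in R 4.3.3 fitted the 3 group means to all 8 arrays, with Benjamini-Hochberg adjustment over the probes. Fits were tested on simulated data. Python 3.11.15 with numpy 2.4.6 and pandas 2.3.3 served for all other steps.

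All probes of the members are named, and other genes come from lists of GBP, immunity-related GTPase, interferon signaling, inflammasome, autophagy, prenylation, interferon and cell type marker genes, where the brightest probe stands for a gene. The members and lists were chosen with earlier results of these data known. Names were updated through a RefSeq table of GRCm38.p6, by accession for 26412 probes, by symbol for 3854 and by synonym for 735, while 8428 kept the design's name. The values of 1 gene of the interferon signaling list are not reported here. Probe coordinates are those of the files on mm9.

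Each slide held 1 replicate number, and all arrays of a group had the same position on their slides, which cannot be told apart from the treatment. Deviations from the group means correlated at 0.182, 0.249 and 0.298 for IFN-λ2 and IFN-β arrays of the same number, which therefore pair. For same-number pairs with a control array they correlated at -0.0717 to 0.104. The deviations of the 2 control arrays mirror each other, so pairing with controls cannot be read from them. The fits reported have no replicate block, so that the direct comparison of the cytokines does not use their pairing. The block, other background corrections, normalizations, thresholds, filters, sample sets and tests, and leaving out each array, were the alternatives.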

Additional observations from a re-analysis of the deposited data

How the results depend on the processing

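Leaving out each array in turn gave 6 probes called higher with IFN-λ2, 6 with IFN-β and 0 between the cytokines throughout. With the replicate number as a block, the counts were 6, 6 and 0, and no call of a GBP probe changed. The t-test called 2 GBP probes with IFN-β, where it called 76 of 25387 probes over the array and limma 232 of 25579. The adjusted p alone called 2 between the cytokines, against 6.19% of all tested probes. Counted as genes, the calls were 5, 5 and 0. Of 470 values of single probes under the alternatives, 452 kept their direction and side of the threshold, 5 lost it, 7 gained it and 6 changed sign, none of these 6 in a called change. The 4 lost to the t-test with IFN-β were Gbp2, Gbp4, Gbp6 and the first Mpa2l probe, and the 7 gained were all the direct difference of the second Mpa2l probe. The log2 change of Gbp1 with IFN-λ2 was -0.21 with no lower threshold and -0.15 without IFN-λ2 replicate 1, within -0.149 to 0.853 when arrays were left out. With arrays left out, the log2 difference of IFN-λ2 minus IFN-β ranged from -0.0476 (without IFN-λ2 replicate 2) to 0.202 for Gbp2, which was -0.00010 without IFN-β replicate 3, and from -0.0343 (without IFN-β replicate 3) to 0.411 for Gbp6. It was 0.16 for Gbp5 with normexp. The cause was not tested. Over all probes, 701 were higher and 284 lower with IFN-λ2, and 508 and 72 with normexp background correction. Signals near 15 units limit what can be said of the Gbp1 probes and the Gbp5 member probe.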
